A study of Caenorhabditis elegans with 6 samples.

Results

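In Caenorhabditis elegans, 10 axon guidance and cell adhesion genes were followed in cells descended from the QR neuroblast: the Slit gene slt-1 with its receptor genes sax-3 and eva-1, the netrin gene unc-6 with its receptor gene unc-5, the L1-type adhesion genes lad-2 and sax-7, the contactin gene rig-6, the kinesin-like gene vab-8 and the Enabled homologue unc-34. They were chosen by name, and all 10 were found among the 14700 genes of the deposited table. The series was made to find target genes of the canonical Wnt pathway in these cells. Control larvae carried the deletion allele mab-5(gk670) together with the transgenes huIs166 and ayIs9. The larvae named ΔN-BAR-1 had that whole genotype plus huIs179, so both groups carried the deletion in mab-5, a Hox gene. Transcripts of mab-5 were still counted in all 6 libraries (380 ± 49.9 CPM in control and 294 ± 107 CPM with ΔN-BAR-1; SD, n = 3 each); whether these 3′ counts lie inside the deletion is not known, so they do not check it. BAR-1 is the β-catenin of canonical Wnt signalling, and a form without its N terminus is known to escape degradation. In each group 3 libraries were made, each from a pool of 2000 QR descendants of L1 larvae fed for 7 hours. The promoter behind ΔN-BAR-1 is not given in the labels. Nothing states whether libraries came from separate cultures, so p-values here reflect only library-to-library spread, some of which may be technical.

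The QR neuroblast gives rise to the touch neuron AVM, the oxygen-sensing neuron AQR and the interneuron SDQR. In the nematode, Slit released from dorsal muscle and netrin released from ventral cells together steer the AVM axon ventrally: SLT-1 repels it through the Robo receptor SAX-3, and UNC-6 attracts it through the DCC receptor UNC-40. UNC-5 turns the response to netrin into repulsion, and EVA-1 is a coreceptor that lets SAX-3-bearing cells respond to SLT-1. L1-type proteins are immunoglobulin-domain adhesion molecules of neurons, of which SAX-7 holds neurons in place and LAD-2 guides the axons of SDQ neurons.

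Of these 10 genes, 2 rose with ΔN-BAR-1, the Slit coreceptor gene eva-1 about 7.24-fold and the L1-type gene lad-2 by a less certain amount, fitted as 4.99-fold. The lad-2 call ended when any 1 control library was left out, and lad-2 passed the low-count filter only through the ΔN-BAR-1 libraries, so it is not support for a rise of the group of genes. The Robo gene sax-3 and the netrin receptor gene unc-5 were also abundant enough to test and did not pass. The remaining 6 genes, among them both ligand genes, were counted too rarely. Of 3447 genes tested, 1.65% passed in either direction while 1.57% were called higher and 0.087% lower (edgeR quasi-likelihood test, Benjamini-Hochberg adjusted p under 0.05). Library totals were 68431 to 254362 estimated transcripts, so that 3 transcripts, taken as the floor under which a level is uncertain, corresponded to between 12.3 and 49.4 CPM (counts scaled to library size with TMM factors).

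The coreceptor gene eva-1 had 10, 17 and 5 transcripts in control replicates 1 to 3 and 153, 75 and 79 in ΔN-BAR-1 replicates 1 to 3. Scaled to library size these were 71.02, 69.9 and 82.4 CPM in control replicates 1 to 3 and 832, 381 and 387 CPM with ΔN-BAR-1. The control values lay close together but rest on 5 to 17 transcripts, and 1 transcript in control replicate 3 equals 16.5 CPM. Their closeness is therefore no measure of how well the control level is known. Every ΔN-BAR-1 library lay far above the control libraries, and ΔN-BAR-1 replicate 1 was the highest. The groups did not overlap upward in 10.4% of all tested genes. The group means were 74.4 ± 6.88 and 533 ± 258 CPM (SD, n = 3 each), and the fitted difference was 2.86 ± 0.41 on the log2 scale (SE; 95% interval 1.996 to 3.72; edgeR quasi-likelihood adjusted p = 0.000513), the 6th smallest p of all tested genes. Without ΔN-BAR-1 replicate 1 the log2 fold change was 2.40 (edgeR adjusted p = 0.000221).

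The Robo gene sax-3, whose protein is the receptor with which EVA-1 acts, had 291, 420 and 544 CPM in control replicates 1 to 3 and 707, 422 and 392 CPM in ΔN-BAR-1 replicates 1 to 3. The groups overlapped, with the lowest value in control replicate 1 and the highest in ΔN-BAR-1 replicate 1. The means were 418 ± 126 and 507 ± 174 CPM (SD, n = 3 each), and the log2 fold change was 0.30 ± 0.34 (SE; 95% interval −0.41 to 1.01; edgeR adjusted p = 0.840). A change of up to about 2-fold upward in sax-3 is within that interval.

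Coreceptor and receptor were compared directly within each library. The difference was log2 CPM of eva-1 minus log2 CPM of sax-3, with a prior count of 2, so it departs from the CPM above. It was −1.87, −2.40 and −2.56 in control replicates 1 to 3 and 0.23, −0.14 and −0.02 in ΔN-BAR-1 replicates 1 to 3. The ranges did not overlap, and the mean moved by 2.30 on the log2 scale, from −2.28 ± 0.36 to 0.02 ± 0.19 (SD, n = 3 each; two-sided exact permutation p = 0.10, the smallest that 3 against 3 libraries allow). With a prior count of 0.5 the mean moved by 2.43. Only the movement of the within-library difference between groups can be read, since the 3′ ends of the genes may not be captured equally well.

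The ligand gene slt-1 was nearly absent, with 0, 0 and 0 transcripts in control replicates 1 to 3 and 0, 0 and 1 with ΔN-BAR-1. The control count of 0 has an exact 95% Poisson interval that reaches 8.3 CPM (counting error only), and 3 counts over the control group equal 6.75 CPM. Transcripts of slt-1 were thus at or under the floor of 3 counts in every library, and a change between groups was not detectable at this depth.

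**Figure D1:**
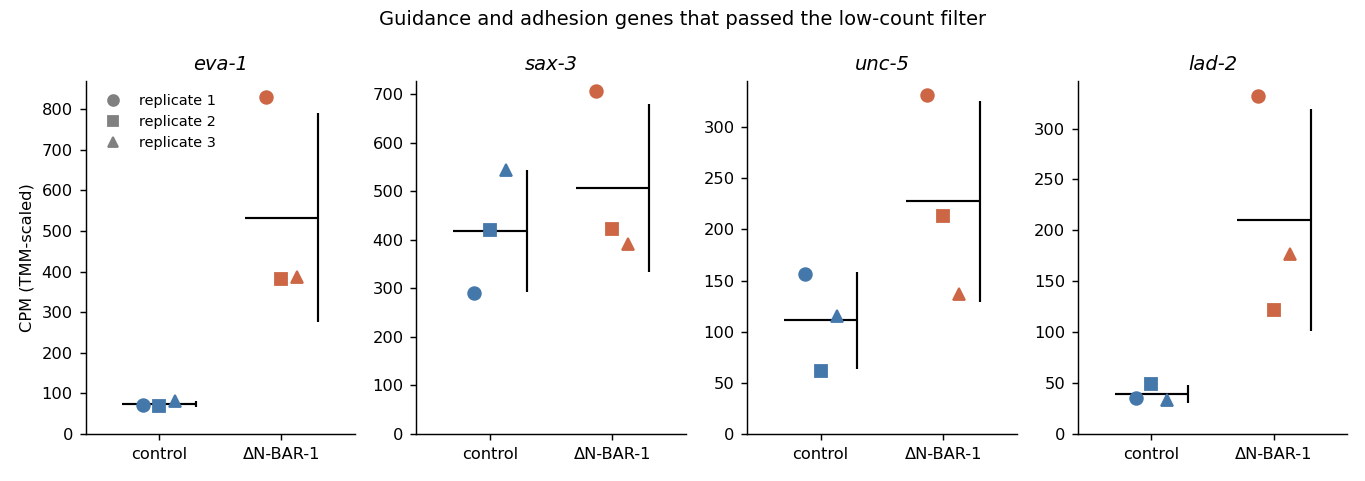
CPM of eva-1, sax-3, unc-5 and lad-2 in each library, with a separate linear axis for each gene. Points are libraries with symbols for replicate numbers, horizontal lines are group means and vertical lines are ± 1 SD (n = 3). The ΔN-BAR-1 libraries of eva-1 (381 to 832 CPM) and lad-2 (122 to 332 CPM) lie above all control libraries, while those of sax-3 and unc-5 overlap them.

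The netrin receptor gene unc-5 had 156, 61.7 and 115.3 CPM in control replicates 1 to 3 and 332, 214 and 137 CPM in ΔN-BAR-1 replicates 1 to 3. The groups overlapped, because ΔN-BAR-1 replicate 3 lay below control replicate 1. The means were 111 ± 47.4 and 227 ± 98.0 CPM (SD, n = 3 each), with a log2 fold change of 1.08 ± 0.45 (SE; 95% interval 0.15 to 2.01). It did not pass the test (edgeR adjusted p = 0.307). Before adjustment it was among the genes higher at p below 0.05, which made up 8.21% of all tested genes. The value was 0.67 without control replicate 2 and 0.73 without ΔN-BAR-1 replicate 1.

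The netrin gene unc-6 had 1, 0 and 0 transcripts in control replicates 1 to 3 and 0, 1 and 0 with ΔN-BAR-1. That is at or under the floor in every library, and no fold change was taken. The other netrin receptor gene, unc-40 (DCC), which was named outside the rule for named genes, had 469 ± 216 CPM in control and 422 ± 153 CPM with ΔN-BAR-1 (SD, n = 3 each), and its log2 fold change of −0.20 ± 0.36 (SE) did not pass (edgeR adjusted p = 0.912). Receptor transcripts for both netrin and Slit were thus counted in every library, whereas either ligand gave at most 1 transcript in a library.

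The L1-type gene lad-2 had 5, 12 and 2 transcripts in control replicates 1 to 3 and 61, 24 and 36 in ΔN-BAR-1 replicates 1 to 3. These correspond to 35.5, 49.4 and 32.9 CPM in control replicates 1 to 3 and 332, 122 and 176 CPM with ΔN-BAR-1. All ΔN-BAR-1 libraries were above all control libraries, as was so for 10.4% of tested genes, and replicate 1 was again the highest. The 2 transcripts of control replicate 3 are under the floor of 3 counts, so its level and the size of the change are uncertain; without that library the log2 fold change was 2.24. The means were 39.3 ± 8.83 and 210 ± 109 CPM (SD, n = 3 each), and the fitted difference was 2.32 ± 0.50 on the log2 scale (SE; 95% interval 1.28 to 3.36; edgeR adjusted p = 0.0167). The gene reached the level of the low-count filter, 48.5 CPM before TMM scaling, in 0 control and 3 ΔN-BAR-1 libraries, so it entered the test only through the group in which it was high. The call ended without control replicate 1, 2 or 3 (edgeR adjusted p = 0.128, 0.0856 and 0.0804), while the log2 fold change stayed between 1.83 and 2.55 when any single library was left out. With the replicate number as a block it was 2.22 (edgeR adjusted p = 0.114).

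The other L1-type gene, sax-7, had 0, 1 and 3 transcripts in control replicates 1 to 3 and 3, 2 and 0 with ΔN-BAR-1. Summed over the group, that is 9 CPM (exact 95% Poisson interval 2.45 to 23, counting error only) in control and 8.55 CPM (2.78 to 19.9) in ΔN-BAR-1 libraries. No library exceeded the floor of 3 counts, so a change in sax-7 could not be read. For that reason the planned comparison of lad-2 with sax-7 within libraries is not given.

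Among the other 3 genes, vab-8 was counted most. Its kinesin-like protein promotes posteriorly directed migration and axon growth and acts on UNC-40 and SAX-3. It had 11, 4 and 3 transcripts in control replicates 1 to 3 and 3, 1 and 9 with ΔN-BAR-1, which overlapped. The group levels were 40.5 CPM (exact Poisson interval 24 to 64) and 22.2 CPM (11.8 to 38), and in a fit without the low-count filter the log2 fold change was −1.01 ± 0.77 (SE; edgeR adjusted p = 0.754).

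The Enabled homologue gene unc-34, which acts downstream of guidance receptors on actin, had 1, 4 and 0 transcripts in control replicates 1 to 3 and 0, 5 and 1 with ΔN-BAR-1. The contactin gene rig-6, an immunoglobulin-domain adhesion gene, had 0, 0 and 1 in each group. The fit without the filter tested 10747 genes and called 101. None of the 6 rarely counted genes passed (smallest edgeR unadjusted p = 0.187, for vab-8, and edgeR adjusted p 0.754 to 0.997). The genes eva-1 and lad-2 passed again.

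**Figure D2:**
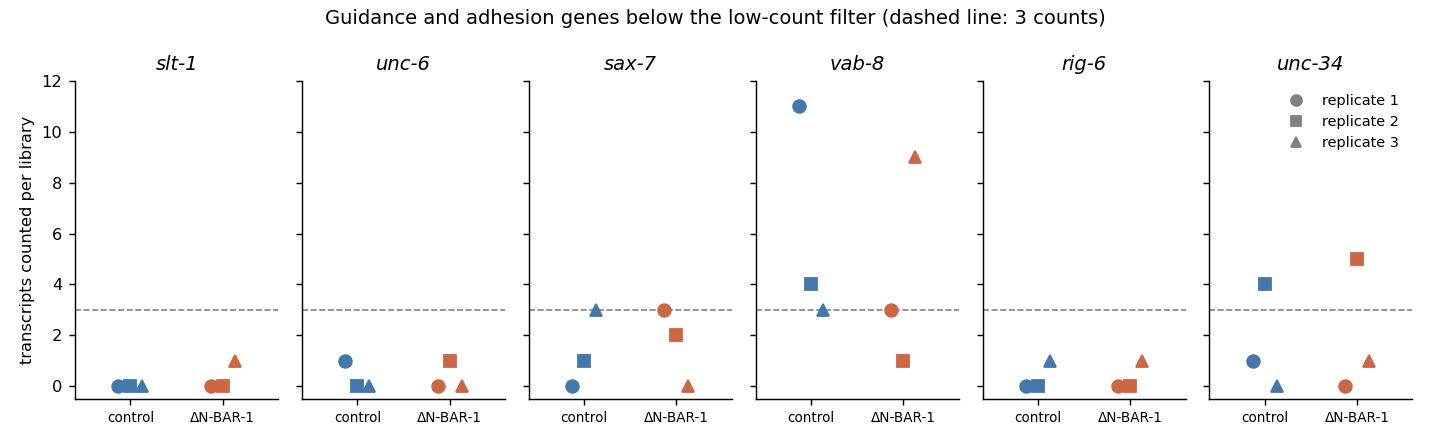
Transcripts counted per library for the 6 genes below the low-count filter, on one linear axis; points are libraries, symbols mark replicate numbers and the dashed line is the floor of 3 counts. Only vab-8 and unc-34 exceed the floor in any library, and the groups overlap for all 6 genes.

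The genes known to work with these receptors and adhesion molecules were counted from 4 lists holding 62 genes, of which 60 were in the table and 33 passed the filter. None of the 33 passed the edgeR test, against 1.65% of all tested genes. DESeq2 and limma-voom also called 0 of them, where they called 61 and 9 of all 3447 genes. Before adjustment, 7 of the 33 were higher and 2 lower at edgeR p below 0.05. The shares of all tested genes were 8.21% and 3.42%. The median log2 fold change over the 33 was 0.37, beside 0.00 over all 3447 genes, and 24 of them were above 0, as were 1724 of all genes.

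Of 21 tested Slit and netrin partners, 16 were above 0 and 5 below. The smallest p-values belonged to clr-1, max-1, unc-71 and ptp-3. The gene clr-1 encodes a receptor tyrosine phosphatase that limits netrin signalling through UNC-40, and it had 99.4, 169 and 115.3 CPM in control replicates 1 to 3 and 451, 239 and 230 CPM in ΔN-BAR-1 replicates 1 to 3. Those groups did not overlap, as was so for 10.4% of tested genes in the upward direction and 7.08% in the downward one, and the log2 fold change was 1.21 ± 0.39 (SE; edgeR adjusted p = 0.132). The gene max-1, which acts in UNC-5-mediated repulsion, stood at 1.40 ± 0.44 with overlapping groups (edgeR adjusted p = 0.132), since ΔN-BAR-1 replicate 2 at 208 CPM lay below control replicate 2 at 230 CPM. The ADAM-family gene unc-71, which takes part in axon guidance, stood at −1.15 ± 0.42, and the LAR-type phosphatase gene ptp-3 at 1.04 ± 0.40 (edgeR adjusted p = 0.224 and 0.234).

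Among 4 tested partners of L1 proteins, the ankyrin gene unc-44, whose protein binds SAX-7, had a log2 fold change of 0.97 ± 0.36 (SE), and dma-1, which encodes a dendrite receptor that acts with SAX-7, one of 0.98 ± 0.37 (edgeR adjusted p = 0.227 for each). The β-spectrin gene unc-70 stood at 0.49 and the semaphorin gene mab-20, whose protein acts through LAD-2, at −0.34. The plexin gene plx-2, known from the same semaphorin pathway, was below the filter, with 0, 3 and 1 transcripts in control replicates 1 to 3 and 7, 2 and 4 with ΔN-BAR-1.

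Of 4 tested genes for other immunoglobulin-domain surface proteins, rig-1 came nearest to the threshold. It had 21.3, 49.4 and 49.4 CPM in control replicates 1 to 3 and 288, 102 and 88.1 CPM with ΔN-BAR-1, without overlap, and stood 1.98 ± 0.56 higher on the log2 scale (SE; edgeR adjusted p = 0.0790). The value for wrk-1, which encodes a membrane-anchored protein of midline guidance, lay in the other direction, with 1726, 1444 and 1795 CPM in control replicates 1 to 3 and 1190, 788 and 646 CPM with ΔN-BAR-1. Its log2 fold change was −0.92 ± 0.32 (SE; edgeR adjusted p = 0.174), and zig-1 and the synaptic adhesion gene syg-1 stood at 1.06 and 0.89. The 4 tested heparan sulfate genes, which make or carry the sugar chains that bind Slit and netrin, stood at −0.62 (rib-2), −0.15 (sdn-1), 0.18 (unc-52) and 0.26 (hse-5).

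**Figure D3:**
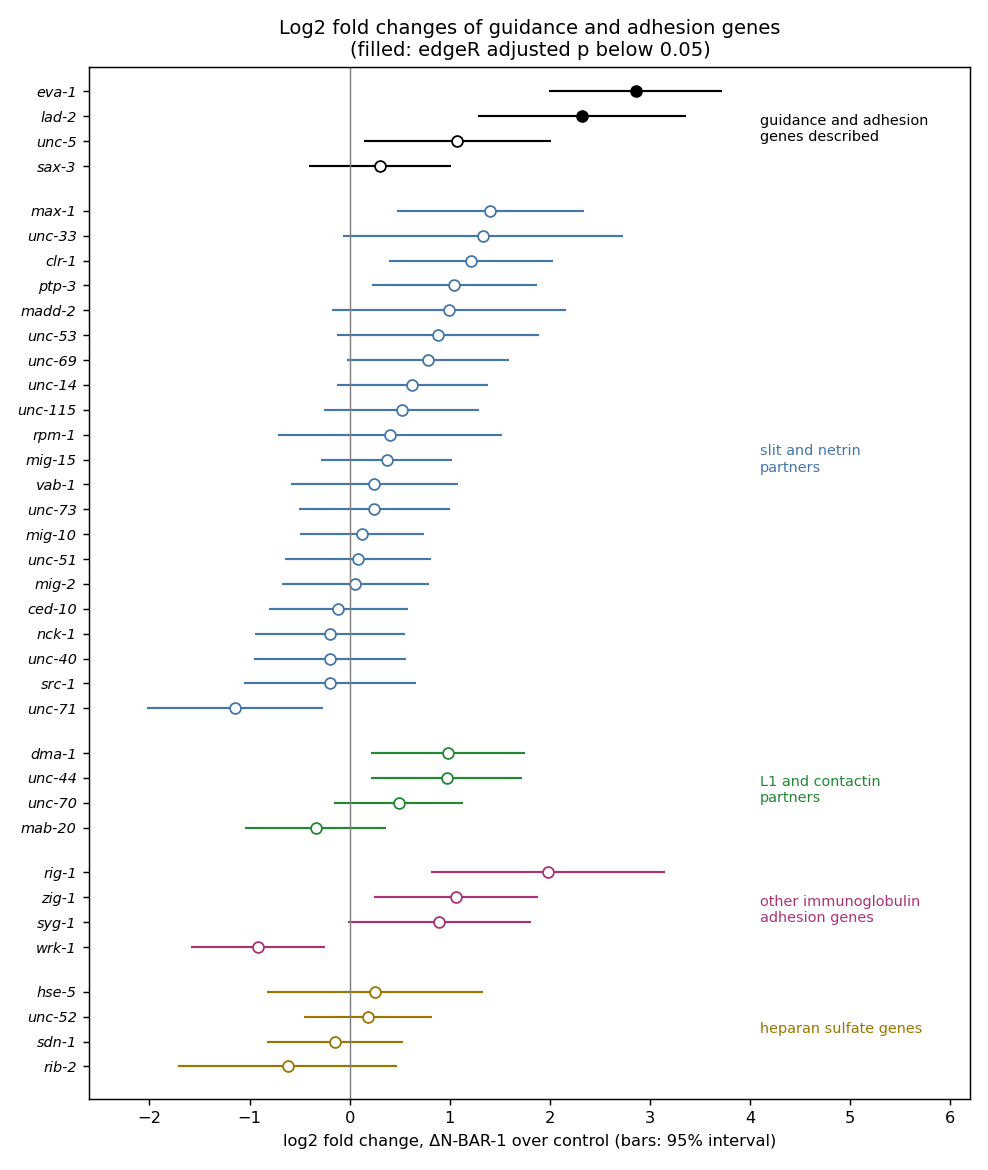
Log2 fold change of ΔN-BAR-1 over control for the 4 tested guidance and adhesion genes (black) and 33 tested partner genes, coloured by list; bars are 95% intervals and filled points passed the edgeR test. Only eva-1 (2.86) and lad-2 (2.32) are filled, and most intervals of the partners span 0.

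Markers of neurons had higher sums in the libraries in which eva-1 and lad-2 were higher. The summed level of 9 touch neuron markers was 942 to 1136 CPM in control and 2737 to 3881 CPM in ΔN-BAR-1 libraries. That of 14 pan-neuronal markers was 1988 to 2525 and 4412 to 6887 CPM. For 6 oxygen-sensing neuron markers it was 1300 to 1321 and 2211 to 2855 CPM. Gene by gene, edgeR called 5 of 5 tested touch neuron markers higher, 3 of 12 pan-neuronal and 0 of 6 oxygen-sensing ones. The share of all tested genes called higher was 1.57%. No tested marker of these lists had a log2 fold change below 0. None of the markers in these 3 lists was at 0 in all 6 libraries, and over all libraries the most abundant of each list were the β-tubulin gene mec-7, the SNAP-25 gene ric-4 and the cyclase gene gcy-36. In control libraries alone the synaptobrevin gene snb-1 (646 ± 71.3 CPM) was above ric-4 (444 ± 192 CPM; SD, n = 3 each). ΔN-BAR-1 replicate 1, the highest library for eva-1, sax-3, unc-5 and lad-2 in its group, also had the highest pan-neuronal sum. Its touch neuron sum (3881 CPM) was close to that of replicate 2 (3833 CPM). The oxygen-sensing sum was instead highest in ΔN-BAR-1 replicate 3 (2855 CPM, beside 2245 CPM in replicate 1). The part of these markers in the results was not tested. In pooled cells, a change in the number of cells of a type and a change in RNA per cell cannot be told apart.

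Marker sums of muscle, hypodermis and glia overlapped between the groups, while those of motor neurons rested on too few transcripts to be read. Body wall muscle markers (13 genes) summed to 5413 to 9404 CPM in control and 3207 to 17580 CPM in ΔN-BAR-1 libraries, mostly from the myosin gene unc-54, with the muscle determinant gene hlh-1 at 0 in all 6 libraries. The sum thus mainly follows unc-54, whose log2 fold change was 0.76 (edgeR adjusted p = 0.692). Of the 9 tested muscle markers, 6 were below 0 and 3 above, with a median log2 fold change of −0.81. Hypodermis and seam markers (9 genes) summed to 132 to 317 and 54.4 to 313 CPM, with the cuticle genes dpy-7, dpy-13 and rol-6 at 0. ΔN-BAR-1 replicate 1 had the lowest sums of both lists. Motor neuron markers (9 genes), relevant because motor neurons express unc-5, summed to 21.3 to 82.4 CPM in control and 0 to 19.6 CPM in ΔN-BAR-1 libraries, without overlap but from few transcripts, with unc-4 and unc-3 at 0 throughout. The 21.3 CPM of control replicate 1 were 3 transcripts of unc-25, at the floor, so the gap between groups is not read as a change. The genes unc-17 and cha-1 had the same counts in every library (0, 3 and 2 in control replicates 1 to 3 and 0 with ΔN-BAR-1). The control sums may therefore hold the same transcripts more than once. Glia markers (7 genes) summed to 169 to 346 and 179 to 313 CPM, with hlh-17, daf-6 and mls-2 at 0. Nearly all of that sum came from lin-26 (160 to 346 CPM in control and 179 to 313 CPM with ΔN-BAR-1), so it is close to the level of 1 gene. The Q lineage markers (7 genes, the POU factor gene unc-86 and the Hox genes lin-39 and mab-5 among them) summed to 3302 to 4776 CPM in control and 3134 to 4424 CPM in ΔN-BAR-1 libraries, with single genes on either side of 0. The Wnt receptor gene mig-1 rose (log2 fold change 1.52, edgeR adjusted p = 0.0415), while the proneural genes hlh-14 and lin-32 stood at 1.78 and −1.24 (edgeR adjusted p = 0.116 and 0.0685).

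**Figure D4:**
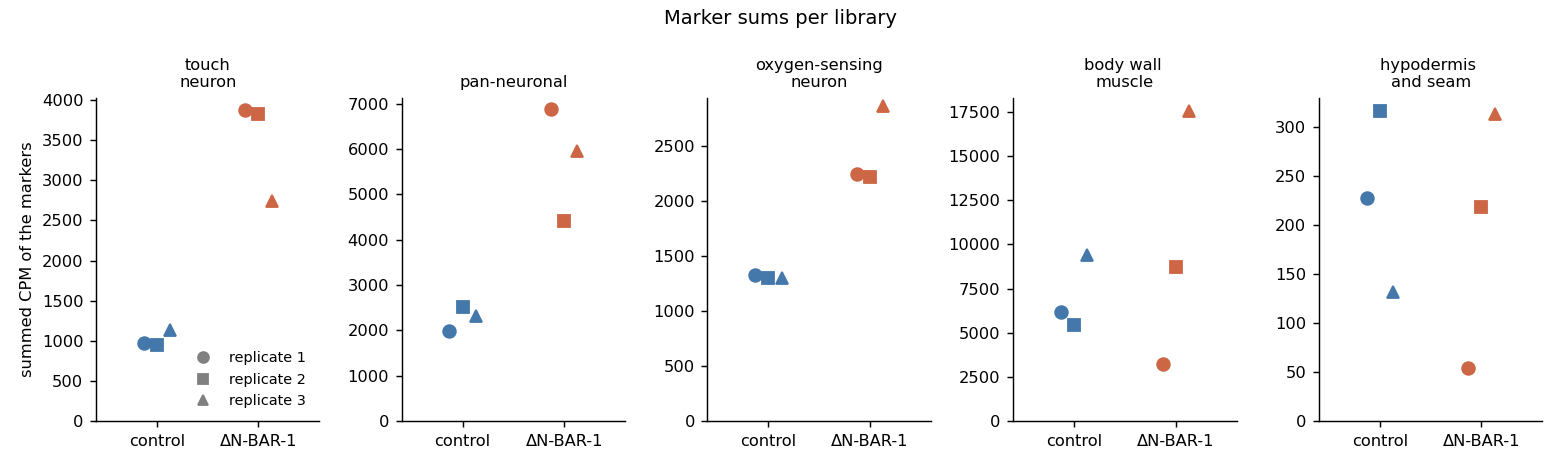
Summed CPM of the markers of 5 cell classes in each library, each on its own linear axis; symbols mark replicate numbers. The neuronal sums of the ΔN-BAR-1 libraries lie above those of all control libraries, and the muscle and hypodermis sums overlap between groups, with ΔN-BAR-1 replicate 1 lowest.

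By the pattern over the 6 libraries, the genes most like eva-1 among 3446 other tested genes were the heat shock factor gene hsf-1 (Pearson r of log2 CPM 0.998), C02B10.3 (0.993) and ZK265.7 (0.993). Those most like lad-2 were the splicing factor gene mbl-1 (0.995), ZK265.7 (0.990) and the Argonaute gene alg-1 (0.987). The correlations describe 6 points that share the difference between groups and the high level of ΔN-BAR-1 replicate 1, and are no test. They do not reflect the size of a change. Log2 fold changes of hsf-1 (1.23), mbl-1 (1.015) and alg-1 (0.80) were not called (edgeR adjusted p = 0.0832, 0.103 and 0.402). Those of C02B10.3 (3.54) and ZK265.7 (3.61) were called (edgeR adjusted p = 0.000513 for each).

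Neighbouring genes could add reads to a gene where annotations overlap. In RefSeq's WBcel235 annotation, lad-2 overlaps ser-6, which lies on the opposite strand and had 0 transcripts in all 6 libraries. It also overlaps Y54G2A.57, on the opposite strand and not in the deposited table under that name. No protein-coding gene overlaps eva-1 or unc-5. The sax-3 neighbour ZK377.15 lies on the same strand as sax-3 and is not in the deposited table under that name. Whether its reads were counted for sax-3 was not tested. The rarely counted sax-7 overlaps nsy-7 on the opposite strand, which had more transcripts than sax-7 in 5 of 6 libraries (2, 14 and 2 in control replicates 1 to 3 and 9, 5 and 9 with ΔN-BAR-1). The gene unc-34 overlaps Y50D4C.5 on the opposite strand, with 1 transcript in control replicate 2 and 0 elsewhere. The gene rig-6 overlaps htip-2, which is likewise not in the deposited table under that name. Whether the authors counted by strand is not stated.

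**Figure D5:**
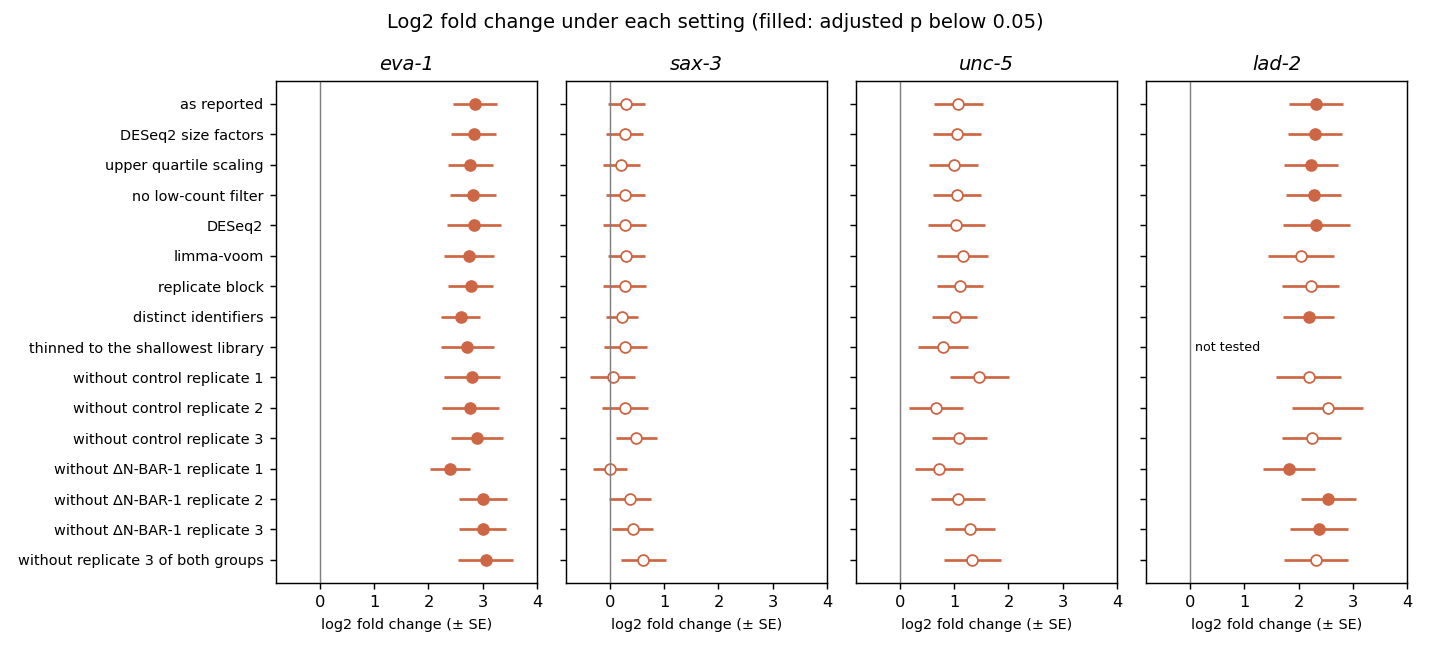
Log2 fold change (± SE) of the 4 tested genes under the reported settings and 15 alternatives; filled points have an adjusted p below 0.05. The points of eva-1 are filled throughout, those of lad-2 under some settings, and those of sax-3 and unc-5 under none.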

How the data were processed

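The deposited values are estimated counts (transcripts per gene, per library) without normalisation across libraries. Per the labels' protocols, RNA was processed by CEL-seq with CEL-seq2 libraries, which count 3′ ends; no source used here names the aligner, annotation or genome build, so no coordinates are printed. At least 99.96% of values above 0 (below 255 identifiers) were a correction of whole numbers, within 0.02, of distinct molecular identifiers out of 256. No column was left unused (0 columns).

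Counts were rounded and tested with edgeR 4.0.16 in R 4.3.3 in a model of group alone over the 6 libraries: TMM, filterByExpr (min.count 10, min.total.count 15), two-sided robust quasi-likelihood tests, adjusted by Benjamini-Hochberg over 3447 genes. SEs come from the F statistics. The edgeR step was tested on simulated data with the same spread in both groups and changes only in better-counted genes. Unequal spread between groups and changes in genes with low mean counts were thus not covered. Within-library differences used a prior count of 2. Chi-square per degree of freedom was 2.98 to 3.19 between control libraries and 5.61 to 10.8 between ΔN-BAR-1 libraries, so none was counted as a duplicate. The ΔN-BAR-1 libraries thus differed more among themselves, while the fit estimated a spread shared by both groups. Alternatives used DESeq2 1.42.0, limma 3.58.1 and others listed at the end. Named besides the 10 genes were the 4 partners per list with the smallest p, the 3 most similar genes per called gene, and abundant markers. Genes and lists were chosen with earlier results of these data known. The genes unc-40, plx-2, mig-1, hlh-14 and lin-32 and the markers at 0 lie outside this rule and were named with their values known. Among the Q lineage markers, mig-1, hlh-14 and lin-32 had the smallest edgeR p-values.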

Additional observations from a re-analysis of the deposited data

How the results depend on the processing

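The log2 fold change of eva-1 kept its call in 15 of 15 alternatives (2.40 to 3.05, edgeR, DESeq2 or limma-voom adjusted p 5.81e-08 to 0.0285). That of lad-2 kept its call in 8 of 14 (1.83 to 2.55, adjusted p 0.0017 to 0.177); after thinning to the shallowest library lad-2 was below the filter. The 15 alternatives for sax-3 (0.0012 to 0.616) and unc-5 (0.67 to 1.46) gave 0 calls, and 0 values reversed. The number of the 10 genes that passed was 2, and 1 to 2 when single libraries were left out. It was 1 with limma-voom, with the replicate number as a block, with thinned counts and with replicate 3 left out of both groups. Among all tested genes, 57 of 3447 passed as reported, 9 of 3447 with limma-voom and 19 of 3447 with the block. With thinned counts 40 of 1509 passed, and 17 of 3670 without replicate 3 of both groups. Without control replicate 1, 2 or 3, 16 of 4005, 21 of 3630 and 26 of 4091 passed. Without ΔN-BAR-1 replicate 1, 2 or 3, 121 of 3895, 54 of 3658 and 86 of 3673 passed. Without the low-count filter 101 of 10747 passed. The number of partners that passed was 0, and it was 2 without the low-count filter (max-1, 1.37, and rig-1, 1.93; edgeR adjusted p = 0.0379 and 0.0332) and 0 to 1 when single libraries were left out: wrk-1 (−1.19) without ΔN-BAR-1 replicate 1, max-1 (1.72) without replicate 2 and rig-1 (2.23) without replicate 3. The within-library difference of eva-1 and sax-3 kept its direction in 9 of 9 alternatives (2.04 to 2.51); that of lad-2 and sax-7 is not read, since sax-7 had at most 3 counts in a library. The causes were not tested. Same-numbered libraries correlated at −0.15, −0.08 and −0.03 after group means were removed, which gave no sign of pairing; with the replicate block, 19 genes passed against 57 without it. Leaving out replicate 3 of both groups was chosen after the data were seen. Control replicate 3, the shallowest library, cannot resolve genes under 49.4 CPM.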

Other observations

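Some immunoglobulin-domain genes below the low-count filter had their highest counts in ΔN-BAR-1 libraries. They were singled out by those counts, and none passed in the fit without the low-count filter. The gene igcm-2 had 0, 2 and 0 transcripts in control replicates 1 to 3 and 18, 6 and 5 in ΔN-BAR-1 replicates 1 to 3, and rig-3 had 2, 5 and 3 against 27, 8 and 4. In igcm-2 the groups did not overlap in counts, and in rig-3 they did; the edgeR adjusted p without the filter was 0.088 and 0.664. The gene rig-4 lay in the other direction, with 5, 17 and 3 transcripts in control replicates 1 to 3 and 2, 4 and 5 with ΔN-BAR-1. Its groups overlapped in counts but not in CPM (35.5, 69.9 and 49.4 in control and 10.9, 20.3 and 24.5 with ΔN-BAR-1). Without the filter its log2 fold change was −1.48 ± 0.74 (SE; edgeR adjusted p = 0.711).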
